A study of Mus musculus with 4 samples.

Results

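Genes that Wnt and beta-catenin signalling keeps active in hepatocytes around the central vein were read on arrays of 4 mouse livers. Of these, 2 were wild type and 2 came from mice labelled Cyp3a-cluster knockout (Cyp3a-/-). The set holds 10 genes, listed as pericentral markers under beta-catenin control, namely Axin2, Lgr5, Tbx3, Cldn2, Rhbg, Slc1a2, Lect2, Gulo, Rnf43 and Znrf3. Their probes were found by matching the RefSeq accession of each non-control probe to these symbols, which gave 14 probes covering all 10 genes, of 39429 non-control probes on the array. The list itself uses no expression value, but it was chosen with earlier results of these data known. For a test, the scanner had to call a probe well above background in both livers of either genotype. This was so for 12 of the 14 probes and 9 of the 10 genes, among 17406 features tested in all. Axin2 was the gene left out.

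Total RNA of whole liver, treated with DNase I, was labelled with Cy3, and each liver had its own 1-colour Agilent array. The Cyp3a genes encode cytochrome P450 enzymes that oxidise drugs and steroids. The groups were labelled wild type and Cyp3a-/- and differed by no other stated allele or agent. The sources used here give no strain, sex or age for either group. The submitters spoke of independent experiments with different animals, so the spread within a genotype comes from 2 livers. Among the Cyp3a-/- arrays it also holds slide and scan, since each had its own, while the wild type arrays shared 1 slide and 1 scan. The p-values below rest on this mixed spread and not on that between animals alone.

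Hepatocytes differ along the path of blood from the portal vein to the central vein. Endothelial cells of the central vein release Wnt ligands and R-spondin 3. In the hepatocytes next to it these signals stabilise beta-catenin, which enters the nucleus, binds TCF/LEF factors and turns on pericentral genes for glutamine synthesis, ammonium uptake and drug metabolism. Some targets feed back on the pathway itself: Axin2 helps to degrade beta-catenin, and Rnf43 and Znrf3 remove Wnt receptors from the cell surface unless R-spondin and an Lgr receptor hold them off.

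All 8 hepatocyte markers on the list used here, albumin among them, were well above background on every array. Levels below are log2 signals minus the 75th percentile of the array. On that scale Cyp3a11, a main Cyp3a gene of mouse liver, lay at 7.94 and 8.09 in the wild type livers. It lay at -6.98 and -6.93, below background, in the Cyp3a-/- livers. Cyp3a16 and Cyp3a25 were also below background in both Cyp3a-/- livers. Cyp3a13 was not: it lay at 3.23 and 3.43 in wild type and at -2.84 and -2.72, still well above background, in Cyp3a-/- liver. All 4 of these Cyp3a genes were thus lower in the livers labelled Cyp3a-/-. The share of probes well above background ran from 54.4% to 56.4% over the arrays. Both wild type arrays lay on 1 slide and the Cyp3a-/- arrays on a slide each, so slide and genotype cannot be told apart. In whole liver, fewer cells of a type and less RNA per cell cannot be told apart either.

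The pericentral Wnt genes did not share a direction between the genotypes. None of the 9 tested members passed the threshold of limma's moderated test, an adjusted p of 0.05 over all features (0 higher, 0 lower). Over all features 0.276% passed, 0.178% higher and 0.0977% lower in Cyp3a-/- liver. At an unadjusted p under 0.05 there were 3, the transcription factor gene Tbx3 and the tight junction gene Cldn2 at lower levels and the secreted protein gene Lect2 at higher levels in Cyp3a-/- liver, beside 10% of all features (4.6% higher and 5.42% lower). For the same 3 genes the genotypes did not overlap, which held for 42.8% of all features (22.5% higher and 20.2% lower), so both shares have a large background. The fitted change was below 0 for 6 of 9 members and for 48.6% of all features. The median log2 fold change (Cyp3a-/- minus wild type, as for all fold changes below) was -0.02 over the 9 members and 0.01 over all features. The median size of the change, without its sign, was 0.30 over the members and 0.20 over all features.

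**Figure D1:**
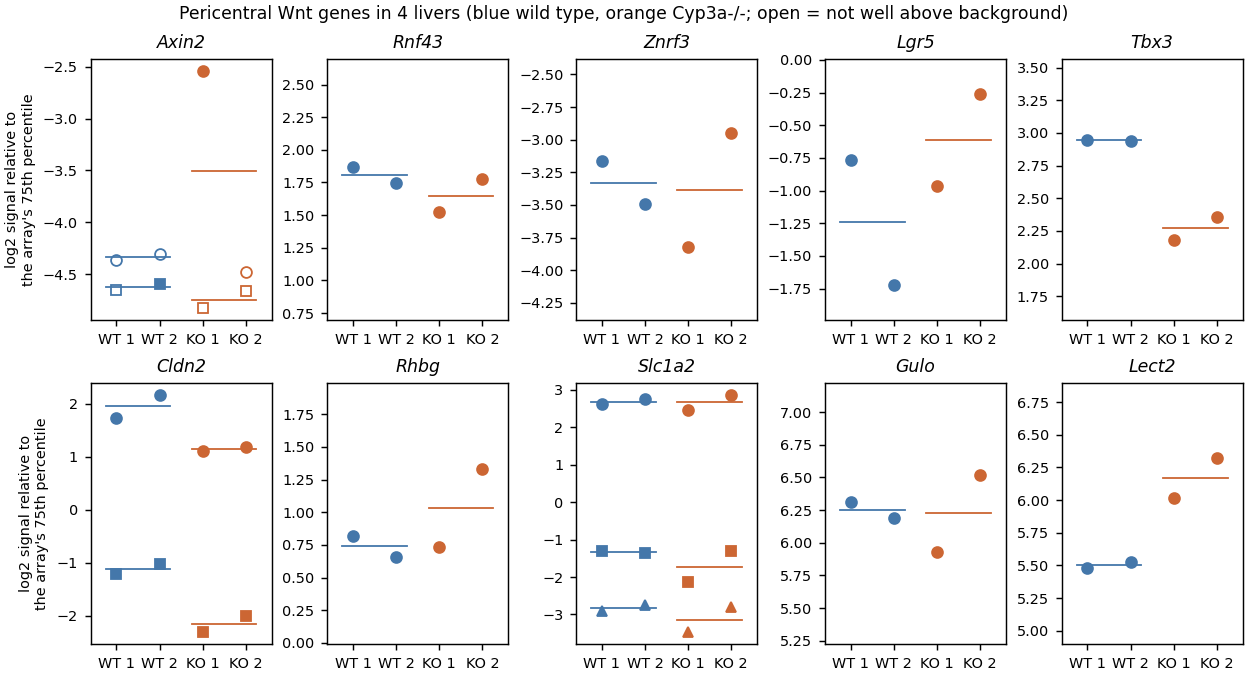
Level of each pericentral Wnt gene in the 4 livers, as log2 signal minus the 75th percentile of its array (vertical axis, at least 2 units in every panel) by liver (horizontal axis, WT for wild type and KO for Cyp3a-/-). Each symbol shape is 1 probe, open symbols are spots not well above background, and bars are means of 2 livers. Both Cldn2 probes and Tbx3 lie lower in both Cyp3a-/- livers, Lect2 lies higher, and 1 Axin2 probe stands out in Cyp3a-/- 1.

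Tbx3 encodes a T-box repressor that beta-catenin induces in hepatocytes. Its level was 2.95 and 2.94 in the wild type livers and 2.18 and 2.36 in the Cyp3a-/- livers. Both wild type livers lay above both Cyp3a-/- livers, and the wild type livers were nearly identical. The means were 2.95 ± 0.0058 and 2.27 ± 0.13 (SD, n = 2 each), a log2 fold change of -0.68 ± 0.18 (SE), or 1.60-fold lower. The 95% interval ran from -1.12 to -0.23 before adjustment for the number of features, and limma's adjusted p was 0.323.

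Cldn2, which encodes claudin 2, a tight junction protein that forms a pore for cations and water, had 2 probes. The brighter probe stood at 1.72 and 2.17 in wild type and at 1.11 and 1.19 in Cyp3a-/- liver. The dimmer probe had processed intensities of 135 and 172 in wild type and of 63.3 and 77.0 in Cyp3a-/- liver. On both probes each wild type liver lay above each Cyp3a-/- liver. The log2 fold change was -0.80 ± 0.22 (SE; limma's adjusted p = 0.338) on the brighter probe, or 1.74-fold lower. On the dimmer probe it was -1.03 ± 0.20 (SE; limma's adjusted p = 0.203, over all probes), or 2.05-fold lower, with an unadjusted 95% interval from -1.53 to -0.54. Both probes carry the accession of the same transcript, so they are repeated readings of the same 4 RNA samples and not independent evidence.

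Leaving out an array kept the sign of both genes but moved their size. Tbx3 ranged from -0.76 to -0.59 and the brighter Cldn2 probe from -1.02 without wild type 1 to -0.57 without wild type 2. The Cyp3a-/- livers differed from each other by 0.18 for Tbx3 and 0.084 for Cldn2.

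Lect2 encodes leukocyte cell-derived chemotaxin 2, a protein that hepatocytes secrete into blood and a known beta-catenin target in mouse liver. Its level was 5.48 and 5.53 in the wild type livers and 6.01 and 6.32 in the Cyp3a-/- livers. The order was thus the opposite of that of Tbx3 and Cldn2, with both Cyp3a-/- livers above both wild type livers. The log2 fold change was 0.66 ± 0.19 (SE), or 1.59-fold higher, with an unadjusted 95% interval from 0.18 to 1.15 and a limma adjusted p of 0.366. Without Cyp3a-/- 2 it was 0.51 and without Cyp3a-/- 1 it was 0.82.

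**Figure D2:**
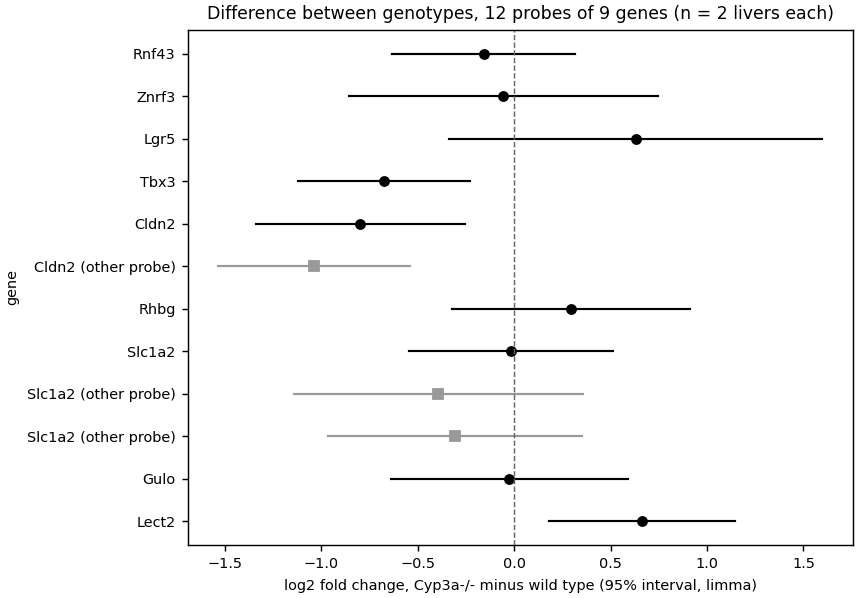
Log2 fold change, Cyp3a-/- minus wild type (horizontal axis), for the 12 tested probes of 9 genes (vertical axis). Points are limma estimates, lines their 95% intervals before adjustment, black circles the probe that stands for the gene and grey squares its other probes. The intervals of Tbx3, both Cldn2 probes and Lect2 leave out 0, and those of the other probes include it.

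The promoters of these genes were read for the letters that TCF/LEF factors bind, since Lect2 and Cldn2 are both described as beta-catenin targets while their levels lay on opposite sides of wild type. RefSeq promoter windows of 300 bases (250 before the start site and 50 after it, assembly GRCm38.p6) were at hand for 5 members, as 6 windows. Searched on both strands were the run CTTTGAA, the run CTTTGAT, the run CTTTGTA and the run CTTTGTT, 4 versions of the TCF/LEF core. They differ only in their last letters, and no other motif was searched. Of the 6 windows 2 held a match, those of Lect2 and Slc1a2, beside 16.9% of all 32851 windows in that table. The windows of Lect2 (chr13:56548489-56548788, minus strand), Cldn2 (chrX:139800558-139800857, plus strand) and Slc1a2 (chr2:102706188-102706487, plus strand) are printed 5′ to 3′, with a match in capitals.
Lect2: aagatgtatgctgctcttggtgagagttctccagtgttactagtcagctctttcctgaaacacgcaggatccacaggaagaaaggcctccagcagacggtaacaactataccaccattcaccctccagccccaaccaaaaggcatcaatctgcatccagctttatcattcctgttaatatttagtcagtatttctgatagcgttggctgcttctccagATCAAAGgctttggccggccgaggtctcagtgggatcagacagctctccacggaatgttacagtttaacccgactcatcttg
Cldn2: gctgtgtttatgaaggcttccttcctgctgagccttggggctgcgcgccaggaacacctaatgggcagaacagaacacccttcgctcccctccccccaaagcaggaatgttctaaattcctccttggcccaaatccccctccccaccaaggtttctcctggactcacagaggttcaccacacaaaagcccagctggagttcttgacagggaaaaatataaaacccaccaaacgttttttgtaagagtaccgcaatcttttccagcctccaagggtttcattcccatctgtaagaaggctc
Slc1a2: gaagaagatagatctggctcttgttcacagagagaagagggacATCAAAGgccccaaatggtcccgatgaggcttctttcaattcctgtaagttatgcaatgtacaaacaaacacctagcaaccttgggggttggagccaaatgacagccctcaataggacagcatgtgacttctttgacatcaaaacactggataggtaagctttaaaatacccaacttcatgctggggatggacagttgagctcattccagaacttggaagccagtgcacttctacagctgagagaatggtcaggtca
Both matches were CTTTGAT on the opposite strand. The match began 32 bases before the start site in Lect2 and 207 bases before it in Slc1a2. The windows of Axin2, Cldn2 and Rnf43 held none of these letters. A match is a run of letters and not a bound site, and enhancers outside these windows were not searched.

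Gulo encodes the enzyme of the last step of vitamin C synthesis. Its level was 6.31 and 6.19 in the wild type livers and 5.93 and 6.52 in the Cyp3a-/- livers. The Cyp3a-/- livers lay on either side of the wild type livers, and the log2 fold change was -0.02 ± 0.25 (SE), with a 95% interval from -0.65 to 0.60 (limma's adjusted p = 0.983).

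The transporter genes gave no called difference. Rhbg, which encodes an ammonium transporter of the membrane facing the blood, lay at 0.82 and 0.66 in wild type and at 0.74 and 1.33 in Cyp3a-/- liver. Cyp3a-/- 2 alone lay above the other livers, and the log2 fold change was 0.30 ± 0.25 (SE; limma's adjusted p = 0.722). Without Cyp3a-/- 2 it was -2.2e-04.

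Slc1a2, which encodes a glutamate transporter best known from astrocytes, was read by 3 probes from a pair of RefSeq transcripts. The brightest probe lay at 2.62 and 2.75 in wild type and at 2.47 and 2.88 in Cyp3a-/- liver, a log2 fold change of -0.02 ± 0.21 (SE; 95% interval -0.55 to 0.52). The other probes, both for the second transcript, stood at -0.39 ± 0.30 and -0.31 ± 0.27 (SE). On these probes Cyp3a-/- 1 alone was low, at -2.14 and -3.47, while the other 3 livers lay between -1.35 and -1.30 on one and between -2.90 and -2.75 on the other.

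Axin2, the most general beta-catenin target of the set, was hardly detected. Its first probe had processed intensities of 15.1 and 17.8 in the wild type livers and of 53.9 and 13.8 in the Cyp3a-/- livers, and was well above background in Cyp3a-/- 1 alone. Its second probe read between 11.05 and 14.6 on the 4 arrays and was well above background in wild type 2 alone. The lowest intensity called well above background lay between 10.8 and 12.4 on the 4 arrays. The probes thus differed in the liver that stood out, and neither gave a level for both livers of a genotype. The first probe gives no measured fold, because Cyp3a-/- 2 read below both wild type livers and only Cyp3a-/- 1 was well above background. In a fit of 32173 features without a filter on dim probes, the same probe stood at 0.83 ± 0.65 (SE; limma's adjusted p = 0.891). That value rests mostly on signals not well above background.

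The paired E3 ubiquitin ligase genes differed in how well they were measured. Rnf43 lay at 1.87 and 1.75 in wild type and at 1.52 and 1.77 in Cyp3a-/- liver, with overlapping genotypes and a log2 fold change of -0.16 ± 0.19 (SE; 95% interval -0.63 to 0.32). Znrf3 was dim, with intensities from 22.2 to 39.9, and lay at -3.16 and -3.49 in wild type and at -3.82 and -2.95 in Cyp3a-/- liver. The Cyp3a-/- livers held both its highest and its lowest value, and the log2 fold change was -0.06 ± 0.33 (SE; 95% interval -0.87 to 0.76).

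Lgr5, which encodes an R-spondin receptor and marks Wnt-responsive cells in many tissues, varied most among the wild type livers. It lay at -0.76 in wild type 1 and at -1.72 in wild type 2, a gap wider than that of 97.6% of all features. The Cyp3a-/- livers stood at -0.96 and -0.26. The genotypes overlapped, since Cyp3a-/- 1 lay below wild type 1, and the log2 fold change was 0.63 ± 0.40 (SE; limma's adjusted p = 0.639). It was 0.15 without wild type 2 and 1.11 without wild type 1.

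What the members had in common was their order in the Cyp3a-/- livers. All 9 tested members were higher in Cyp3a-/- 2 than in Cyp3a-/- 1, by a median of 0.41, where 55.1% of all features were higher by a median of 0.041. The gap ranged from 0.084 for Cldn2 to 0.87 for Znrf3, with 0.70 for Lgr5, 0.59 for Rhbg and for Gulo, 0.41 for Slc1a2, 0.31 for Lect2, 0.25 for Rnf43 and 0.18 for Tbx3. Cyp3a-/- 2 held the highest value of the 4 livers for 6 members (26.5% of all features), and Cyp3a-/- 1 the lowest for 6 (32.5%). Between the wild type livers 3 of 9 members were higher in wild type 2 (46.9% of all features).

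**Figure D3:**
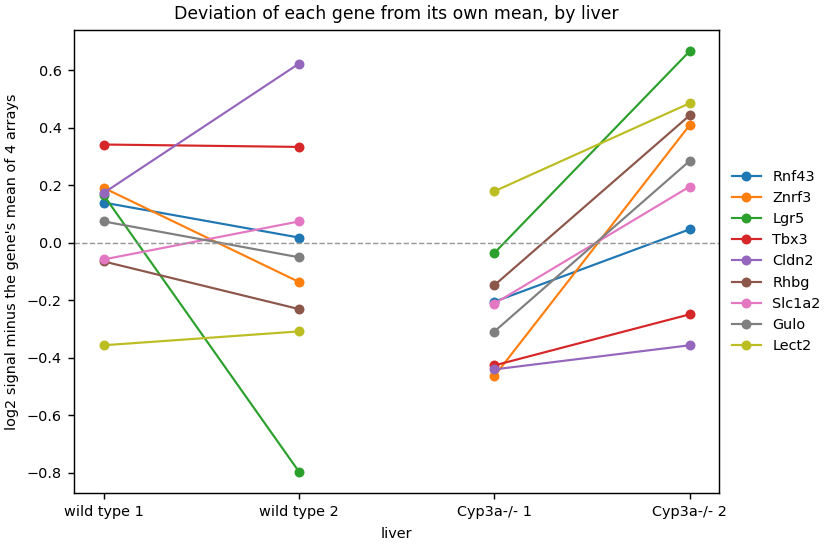
Log2 signal of the 9 tested members minus each gene's mean over the 4 arrays (vertical axis) in each liver (horizontal axis). Lines join the livers of 1 genotype. All 9 lines ascend from Cyp3a-/- 1 to Cyp3a-/- 2, most for Znrf3 and least for Cldn2, while Lgr5 spans the widest gap between the wild type livers.

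The set's median was 0.27 without Cyp3a-/- 1 and -0.28 without Cyp3a-/- 2. Its sign also changed with both Cyp3a-/- livers kept, to 0.038 without wild type 1 and 0.0065 with array median scaling. Without wild type 2 it was -0.087. The gap between the Cyp3a-/- livers was not tested, since each side is 1 liver. The order was not particular to the members. Among beta-catenin machinery genes 16 of 22 were higher in Cyp3a-/- 2 (median 0.23), and 7 of 10 targets known from many tissues (median 0.26). Receptor genes gave 7 of 10 (median 0.10), ligand genes 5 of 11 (-0.10) and inhibitor and feedback genes 2 of 7 (-0.07). Of the 24 periportal genes listed, which mark the opposite zone, 20 were also higher in Cyp3a-/- 2, by a median of 0.18. The same held for 19 of 28 other pericentral genes (median 0.21) and 7 of 8 hepatocyte markers (median 0.14). Among markers of other cells it held for 6 of 7 stellate (median 0.098), 4 of 6 central vein endothelial (0.21) and 4 of 7 macrophage markers (0.18). Lymphocyte markers gave 3 of 5 (0.089) and erythroid markers 2 of 3 (0.43). Sinusoidal endothelial markers gave 2 of 8 (median -0.20), cholangiocyte markers 0 of 5 (-0.22) and neutrophil markers 0 of 3 (-0.34). One hepatocyte marker, the fibrinogen gene Fgb, picked after its values were seen, lay at 7.13 in Cyp3a-/- 1 and between 8.95 and 8.98 in the other livers. The rest of that list differed less. In Cyp3a-/- 1 and Cyp3a-/- 2, Apoa1 lay at 7.10 and 7.67, Apob at 7.42 and 7.66, and Hnf4a at 6.38 and 6.55. Trf lay at 9.18 and 9.29, Alb at 9.64 and 9.67, and Serpina1a at 9.59 and 9.61. Ttr had the opposite order, at 8.52 and 8.34. The part of hepatocyte RNA, of slide or of scan in the gap was not tested.

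Upstream of the members, Wnt ligands and receptors gave no call. Of 25 genes for ligands, R-spondins and their release, 11 were tested and none passed limma's threshold (0 higher, 0 lower; 0 at an unadjusted p under 0.05; median -0.04). Rspo3, the R-spondin of the central vein, was level in all 4 livers, between -0.27 and -0.21, with a log2 fold change of -0.04 ± 0.17 (SE). Wnt2 stood at 0.0028 ± 0.28 (SE) and Wnt9b at -0.68 ± 0.39 (SE), both central vein ligands with dim signals. The lowest p among ligands belonged to Wnt5a, at 0.78 ± 0.34 (SE), followed by Wnt5b at 0.44 ± 0.21, Wnt9b and Wnt9a at -0.32 ± 0.25. Wnt5a entered the test only through the Cyp3a-/- arrays, where it is higher. Wnt9b and Wnt9a entered only through the wild type arrays, where they are higher. For these 3 the filter had thus selected for the direction of the change.
Of 15 receptor genes 10 were tested and none passed (0 higher, 0 lower; 1 at an unadjusted p under 0.05, Fzd8 at 0.99 ± 0.30, SE; median 0.05). Lgr4, another R-spondin receptor gene, stood at 0.42 ± 0.23, the receptor gene Fzd1 at 0.27 ± 0.17 and the co-receptor gene Lrp5 at 0.18 ± 0.22 (SE).

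Among inhibitors, Wif1 and Dkk4 were above background in the Cyp3a-/- livers alone. Of 15 inhibitor and feedback genes 7 were tested, and these 2 were called, 0 were lower and 5 did not pass. Both called genes entered the test only through the Cyp3a-/- arrays, where they are high, so the filter had selected for the difference tested and their count is no support for a shift of the list. A filter requiring all 4 arrays left both out, and 9 of 16484 features were called with it, beside 48 of 17406. Wif1 encodes a protein that binds Wnt ligands outside the cell. Its intensity was 2.83 and 2.69 in the wild type livers, below background, and 22.6 and 19.9 in the Cyp3a-/- livers, well above it. The Cyp3a-/- mean was 1.89-fold the lowest signal called well above background on the wild type arrays. The adjusted p of 0.0086 from limma belongs to the fitted log2 fold change of 3.035, which rests on wild type values below background. Dkk4 encodes a Dickkopf protein that blocks the Lrp co-receptors. Its intensity was 6.48 and 7.06 in wild type, below background, and 33.5 and 38.9 in Cyp3a-/- liver, well above it. Its Cyp3a-/- mean was 3.21-fold that lowest signal, and limma's adjusted p of 0.014 again belongs to the fitted log2 fold change, 2.51. Neither fold is a minimum, since a probe can read above that lowest signal and not be called.
For both genes the signal was dim in every liver. With normexp background correction the log2 fold changes shrank to 0.55 for Wif1 and 0.54 for Dkk4 and missed the threshold (adjusted p = 0.335 and 0.266), and both also missed it without either wild type array and without a filter on dim probes. The other 5 tested genes of that list did not pass, among them the feedback genes Nkd1 at 0.28 ± 0.24, Nkd2 at 0.74 ± 0.58 and Notum at 0.11 ± 0.18, and the Dickkopf receptor gene Kremen1 at 0.28 ± 0.18 (SE). Nkd2 lay at 4.43 in Cyp3a-/- 1 and between 2.58 and 2.77 in the other livers.

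**Figure D4:**
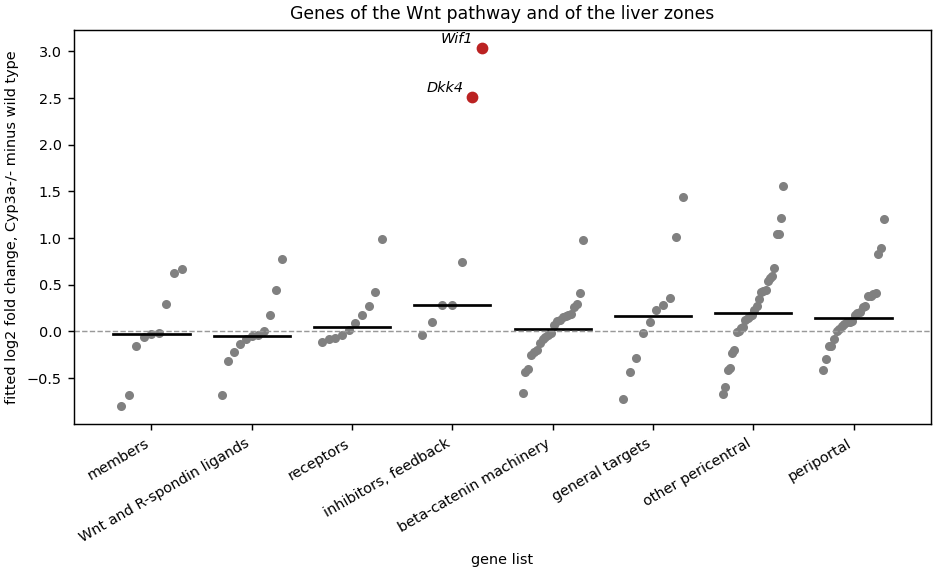
Fitted log2 fold change, Cyp3a-/- minus wild type (vertical axis), of every tested gene of the members, of the other Wnt pathway lists and of the zonation lists (horizontal axis). Each point is 1 gene, ordered by value within its list, bars are list medians and red points passed limma's threshold. Wif1 and Dkk4 are the points past the threshold, both entered only through the Cyp3a-/- arrays, and their fitted values are not bounds because the wild type signal was below background.

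Inside the cell, none of the 22 tested genes of 23 for beta-catenin, its destruction complex and its partners passed (0 higher, 0 lower; 1 at an unadjusted p under 0.05; median 0.03). Ctnnb1, the gene of beta-catenin itself, stood at 0.26 ± 0.17, the main liver TCF gene Tcf7l2 at -0.20 ± 0.48 and Apc, a scaffold of the destruction complex, at 0.98 ± 0.41 (SE). The beta-catenin cofactor genes Bcl9 and Bcl9l stood at -0.66 ± 0.19 and -0.41 ± 0.17, and the kinase gene Csnk1a1 at 0.41 ± 0.19 (SE). Of 10 targets known from many tissues none passed either (0 higher, 0 lower; 3 at an unadjusted p under 0.05; median 0.17): Myc stood at 1.44 ± 0.22 (limma's adjusted p = 0.137), Tnfrsf19 at 1.01 ± 0.32, cyclin D1 (Ccnd1) at -0.73 ± 0.29, Tcf7 at -0.43 ± 0.26 and Sp5 at -0.28 ± 0.19 (SE). Tcf7 entered the test only through the wild type arrays, where it is higher. Over all features 10% had an unadjusted limma p under 0.05.

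Other genes of the same zone were counted beside the members. At an unadjusted p under 0.05 in limma, 4.6% of all features were higher and 5.42% lower, and 48.6% had a fitted change below 0. Of 30 other pericentral genes 28 were tested and none passed limma's threshold (0 higher, 0 lower; 8 higher and 1 lower at an unadjusted p under 0.05), with a median log2 fold change of 0.20 and 21 above 0. The 4 with the lowest p were the P450 gene Cyp2c29 at 1.04 ± 0.19, the glutathione transferase genes Gstm2 at 1.22 ± 0.24 and Gstm3 at 1.56 ± 0.35, and the ornithine aminotransferase gene Oat at 1.04 ± 0.29 (SE; limma's adjusted p from 0.204 to 0.344). Glutamine synthetase (Glul), the classic gene of the hepatocytes next to the vein, stood at 0.27 ± 0.22, Cyp2e1 at 0.12 ± 0.19 and Cyp1a2 at -0.23 ± 0.27 (SE), all with overlapping genotypes. Of 24 periportal genes, all tested, none passed (0 higher, 0 lower; 2 higher at an unadjusted p under 0.05), with a median of 0.14 and 19 above 0, and the lowest p at Asl (0.89 ± 0.18), Hsd17b6 (1.2 ± 0.25), Apoa4 (-0.42 ± 0.18) and Cps1 (0.38 ± 0.19, SE). The medians of both zones lay above 0 and that of the Wnt-driven members at -0.02, and these medians were not tested against each other.

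Markers of other liver cells were read beside Tbx3 and Cldn2, whose levels were lower in Cyp3a-/- liver. All 7 stellate cell markers had a fitted change below 0, with a median of -0.15, and their summed signal was 45.7 to 49.2 times the array's 75th percentile in wild type and 39.6 to 42.3 in Cyp3a-/- liver. For macrophages 6 of 7 lay below 0 (median -0.13), with sums of 57.1 to 58.7 and 46.4 to 51.2. Single markers differed by more than these medians, and the pair with the lowest p in these lists is given here after its values were seen. Marco, a scavenger receptor gene of macrophages, lay at 2.004 and 2.82 in wild type and at 0.85 and 1.03 in Cyp3a-/- liver, a log2 fold change of -1.47 ± 0.30 (SE; limma's adjusted p = 0.246). Colec11, a collectin gene, lay at 3.02 and 2.95 in wild type and at 2.19 and 2.23 in Cyp3a-/- liver, a log2 fold change of -0.77 ± 0.17 (SE; limma's adjusted p = 0.267). In both genes the genotypes did not overlap, as in 42.8% of all features. The change of Marco was larger in size than that of Tbx3 or of either Cldn2 probe. The rest of the macrophage list changed less: Clec4f stood at -0.32, Cd5l at -0.25, Csf1r at -0.13, Cd68 at -0.11, Adgre1 at -0.04 and Vsig4 at 0.16. For sinusoidal endothelium 5 of 8 markers had a fitted change below 0 (median -0.02), with sums of 28.7 to 37.6 and 30.6 to 33.6. For central vein endothelium 4 of 6 lay below 0 (median -0.06), with sums of 2.13 to 2.16 and 1.93 to 2.10. None of these markers passed limma's threshold (0 of 28 in these lists; 3 at an unadjusted p under 0.05), and every marker of the stellate, macrophage and sinusoidal lists was well above background on all 4 arrays. None of the tested markers of cholangiocytes (5), lymphocytes (5), neutrophils (3) and erythroid cells (3) passed either. The part of these cells in the levels of Tbx3 and Cldn2 was not tested.

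Cldn2 had the largest fitted change among the members, and the named genes with the most similar values over the 4 livers were Enkd1, Ppl and Zfp398. Their centred log2 signals differed from those of Cldn2 by a root mean square of 0.023, 0.026 and 0.047. With 4 arrays and 17406 features, such closeness is a description of these livers alone.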

How the data were processed

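Total RNA of 4 livers (2 wild type, 2 Cyp3a-/-) was measured on 1-colour Agilent arrays, and groups and replicate numbers were taken from the labels. The intensity values that the authors deposited are scanner output, made with Agilent Feature Extraction (version 11.5.1.1 in the submitters' processing notes). Per the file headers, processed intensity had its background subtracted and was detrended within each array, with no scaling across arrays. The deposited flags of 0 or 1 mark spots well above background, saturated (0 on each array) or deviating. A table of log2 values, also deposited by the authors, came with no statement of method, and its scale, centring and direction are not given. Set against the scanner values it behaved as the signal used here, centred on each probe's median (r = 1.00 per array after rounding), with column medians of 0.060, -0.073, -0.021 and 0.021. Scale, centring and direction were thus inferred.

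Control spots and 113 to 148 deviating spots per array were left out. From log2 processed intensity the 75th percentile of each array (intensity 308 to 352) was subtracted, and spots of a probe were averaged. Of 39429 probes 21508 were kept, 28025 probes had 1 symbol through RefSeq accessions (GRCm38.p6), and the kept probe with the highest mean signal stood for a gene. The array design names an older genome build, so no probe coordinates are given, and the coordinates of the promoter windows are those of GRCm38.p6. Genotypes were compared over 17406 features with limma 3.58.1 in R 4.3.3 (lmFit, eBayes, 2-sided, Benjamini-Hochberg over all features, adjusted p threshold 0.05). The prior had 3.54 degrees of freedom beside 2 residual. The folds given for Wif1 and Dkk4 set the bright genotype's mean against, per array, the higher of the dim probe's signal and the lowest signal well above background. That lowest signal is taken over all probes of the array and is not the detection limit of the probe itself. An exact permutation test of 2 against 2 livers cannot go below 0.333 and was not used. The number of arrays limits the precision of every value. The fit was tested on simulated data.

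The members and lists were chosen with earlier results of these data known. Every member is named. Other lists name the 4 genes with the lowest p, besides 14 well-known regulators and targets fixed by name, and the similar genes were ranked by root mean square difference from the member with the largest fitted change. The files hold no mean pixel signal, so normexp used the median pixel intensity, with an offset of 50. With 4 arrays limma's duplicateCorrelation gives no value, so the within-slide correlation (0.35) was taken from the mean log ratio of the within-genotype variances. The replicate numbers are not said to mark experiments and were no block in the main comparison.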

Additional observations from a re-analysis of the deposited data

How the results depend on the processing

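No tested member passed limma's adjusted p of 0.05 with all 4 arrays or in any of the 14 alternatives run over all features (0 in each), and the other probes of Cldn2 and Slc1a2 did not pass either. Lgr5, Tbx3, Cldn2, Lect2 and Rnf43 kept their sign throughout, between 0.15 and 1.11, -0.76 and -0.59, -1.03 and -0.57, 0.51 and 0.82, and -0.28 and -0.032. With array median scaling Slc1a2 stood at 0.014 and Gulo at 0.0065. When 1 array was left out Gulo ranged from -0.32 to 0.27, Slc1a2 from -0.22 to 0.19, Znrf3 from -0.49 to 0.38, Rhbg from -2.2e-04 to 0.59 and the members' median from -0.28 to 0.27. Axin2 entered only without a filter on dim probes. Of the other Wnt pathway genes 2 were called (Wif1 and Dkk4), 0 with normexp, 0 without a filter, 0 with a filter requiring all 4 arrays, which leaves both out, and 6 with array median scaling. Leaving out 1 array gave 0 (without either wild type array) to 4 (without Cyp3a-/- 2). Zonation genes called were 0, 5 with array median scaling and 0 to 1 when 1 array was left out. Under median scaling the prior pulled all features to a single variance, and 659 features were called beside 48. With the replicate number as a block 0 members and 2 other Wnt pathway genes were called, and the block changed no other call given here. The deviations of same-numbered livers correlated at -0.10 over features. A crossed block, chosen after seeing the data as were the other probes, called 56 features, beside 58 with the block as numbered, and 0 members. With slide as a random block 33 features were called and 0 members. Signal over background limits Axin2, Znrf3, Wif1 and Dkk4, and 2 livers per genotype limit every value.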
